A study of Mus musculus with 18 samples.

Results

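The Wnt ligands described here are 10 genes, Wnt1, Wnt2, Wnt3, Wnt3a, Wnt4, Wnt5a, Wnt5b, Wnt6, Wnt8a and Wnt11, of the 23421 gene symbols with a deposited RNA level. They were taken by name, as all rows of the expression table whose RefSeq transcript belongs to one of these symbols, which gave 13 transcripts. The other 9 Wnt genes of the mouse are used only for comparison. The study examined Polycomb-dependent methylation of histone H3 in mouse embryonic stem (ES) cells of the 129/Ola background and in embryoid bodies (EBs) grown from them, and holds 6 RNA-seq libraries and 12 chromatin immunoprecipitation samples, which are not analysed here. E36 ES cells gave a library labelled wild type and a library labelled Eed knockout, both from cultures with 15% serum and leukemia inhibitory factor (LIF), the cytokine that holds ES cells undifferentiated. EBs of the same 2 labels were formed without LIF in hanging drops for 48 hours, received 0.5 µM all-trans retinoic acid from day 2 to day 5 and were cultured to day 9. E14 ES cells, labelled wild type, received through a lentiviral vector either a scrambled short hairpin RNA (shCtrl) or one against Setd2 (shSetd2), and were harvested on day 4 after puromycin selection. Eed is a subunit of Polycomb repressive complex 2, which methylates lysine 27 of histone H3, and Setd2 trimethylates lysine 36 of the same histone. The labels give neither the Eed allele nor the number of clones, and an EB is a mixture of cell types. Each condition has 1 library, so nothing was tested and no error can be given for any value.

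Wnt proteins are secreted, lipid-modified ligands that bind Frizzled receptors together with co-receptors. In the branch that runs through beta-catenin, binding to Frizzled and Lrp5 or Lrp6 stops the destruction of beta-catenin, which then acts with Tcf and Lef factors on target genes such as Axin2. In the branches that do not need beta-catenin, ligands such as Wnt5a and Wnt11 act through Frizzled with Ror or planar cell polarity proteins on cell shape and movement. In the embryo different ligands mark different places: Wnt3 and Wnt8a the gastrulating embryo, Wnt3a the tail bud and dorsal neural tube, and Wnt1 the dorsal neural tube and the border of midbrain and hindbrain.

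The starts of Wnt1, Wnt3, Wnt3a and Wnt11 are shown because these are 3 ligands that were lower, and the ligand with the largest positive difference, in the EB library labelled Eed KO relative to wild-type EBs. CpG-rich promoters are where Polycomb complexes are mainly found in mouse ES cells. Each sequence runs 5′ to 3′ from 250 bases before to 50 bases after an annotated start, from RefSeq on GRCm38.p6, with every CpG dinucleotide in capitals. Wnt1 is chr15:98789607-98789906 on the plus strand, Wnt3 is chr11:103773925-103774224 on the plus strand and Wnt3a is chr11:59290702-59291001 on the minus strand. For Wnt11 the start whose distance to the gene's end equals the span of the deposited transcript is shown, chr7:98838595-98838894 on the plus strand.
Wnt1: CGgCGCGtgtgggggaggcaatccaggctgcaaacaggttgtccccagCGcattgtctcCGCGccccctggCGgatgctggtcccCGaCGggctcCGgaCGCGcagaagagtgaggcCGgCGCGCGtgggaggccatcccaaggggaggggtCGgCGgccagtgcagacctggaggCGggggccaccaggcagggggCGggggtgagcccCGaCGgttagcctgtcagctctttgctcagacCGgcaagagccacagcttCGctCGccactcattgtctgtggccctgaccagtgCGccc
Wnt3: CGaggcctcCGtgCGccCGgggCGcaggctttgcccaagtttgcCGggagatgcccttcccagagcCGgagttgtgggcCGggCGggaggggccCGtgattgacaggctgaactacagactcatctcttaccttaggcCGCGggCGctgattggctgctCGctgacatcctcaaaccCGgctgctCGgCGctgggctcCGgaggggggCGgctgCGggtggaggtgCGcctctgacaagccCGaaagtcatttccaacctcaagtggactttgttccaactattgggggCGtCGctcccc
Wnt3a: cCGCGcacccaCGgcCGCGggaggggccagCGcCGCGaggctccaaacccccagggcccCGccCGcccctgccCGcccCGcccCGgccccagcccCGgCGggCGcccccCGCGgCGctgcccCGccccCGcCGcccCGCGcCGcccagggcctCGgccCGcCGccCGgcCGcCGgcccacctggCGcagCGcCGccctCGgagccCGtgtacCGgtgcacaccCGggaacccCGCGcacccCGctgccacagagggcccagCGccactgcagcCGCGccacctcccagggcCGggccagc
Wnt11: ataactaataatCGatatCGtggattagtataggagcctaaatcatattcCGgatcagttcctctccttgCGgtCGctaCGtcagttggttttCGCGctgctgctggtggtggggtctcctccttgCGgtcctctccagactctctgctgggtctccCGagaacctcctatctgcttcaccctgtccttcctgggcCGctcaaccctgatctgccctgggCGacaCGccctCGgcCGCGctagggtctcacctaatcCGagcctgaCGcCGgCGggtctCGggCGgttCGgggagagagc
The 300 bases of Wnt3a hold 45 CpG dinucleotides, a number that 1.93% of the 32851 promoters in the RefSeq table reach. The Wnt1 promoter holds 26, reached by 16.9% of promoters, and the Wnt3 promoter holds 24, reached by 20.0%. The Wnt11 start shown holds 23, reached by 21.5%, and an upstream Wnt11 start holds 45. The median promoter of the table holds 7, with quartiles of 3 and 20, so all 4 sequences lie above the upper quartile. CpG content was high in ligands of either direction and also in Wnt4, with 51, which differed little between the EB libraries.

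Among the 10 ligands, 8 had at least 1 promoter in the table, 11 promoters in all, and Wnt5a and Wnt8a were not matched. The letters CTTTGAT, the core of the site bound by Tcf and Lef factors, were searched on both strands and occur in 3.73% of all promoters. They were found in the upstream Wnt11 start and in 1 of the 3 Wnt5b starts. The variant CTTTGAA occurs in 5.14% of promoters and AGGTCA, a word recognised by retinoic acid receptors, in 16.3%, and neither was found in a ligand promoter. The 3 words do not overlap each other, and a match describes letters in this window only.

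Across the 6 libraries the deposited FPKM (fragments per kilobase of transcript, relative to all mapped fragments) summed to between 452782 and 598935, and between 11871 and 13171 genes had at least 1 FPKM. Read depth is not known, and the most common ratio between low values places the libraries at 0.8 to 1.19 times the depth of the wild-type ES library. Eed RNA was 72.3 FPKM in the wild-type ES library and 77.8 in the ES library labelled Eed KO, and 25.04 and 21.8 FPKM in the wild-type and Eed KO labelled EBs. The Eed RNA level therefore does not check the knockout label, and every direction given for Eed rests on that label. Setd2 was 16.8 FPKM in shCtrl and 2.59 in shSetd2. Differences are given as differences of log2(FPKM + 1), which understate the change of weakly expressed genes, and a gene is called higher or lower by a size rule where the difference is at least 1. For the Eed label, chromosomes 11, 6 and 3 stood apart from the other chromosomes. Relative to all genes the median difference on chromosome 11 was -0.47 in ES cells and -0.54 in EBs, that on chromosome 6 was 0.49 and 0.51, and that on chromosome 3 was 0.34 and 0.57. Values given below as less the chromosome median had the whole median of the chromosome subtracted. For the Eed label this includes the median over all genes that reach 5 FPKM, -0.05 in ES cells and -0.18 in EBs. For shCtrl less wild-type E36 cells, the medians of chromosomes 11, 6 and 3 relative to all genes were -0.40, 0.07 and 0.05. For the ES library labelled Eed KO less shCtrl they were -0.06, 0.43 and 0.28. Chromosome 8 also stood apart in these comparisons, at -0.32 and 0.29. Wnt3 and Wnt3a lie on chromosome 11 and Wnt2 and Wnt5b on chromosome 6, and no ligand lies on chromosome 3 or 8. The part of these shifts in the ligand values was not tested.

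In ES cells all 10 ligands were weakly expressed. In the wild-type E36 library Wnt4 and Wnt3 were highest, at 2.11 and 2.09 FPKM, followed by Wnt8a at 1.09, and no other ligand reached 1 FPKM. Summed over transcripts the 10 ligands came to 7.76 FPKM there, 8.47 in the ES library labelled Eed KO, 3.45 in shCtrl and 4.67 in shSetd2. Wnt1 lay at or below 0.0478 FPKM in the 4 ES libraries and Wnt2 at or below 0.0376. The order within a library cannot be separated from noise between neighbours, since no library was repeated. The plot of ligand levels shows this low ES baseline beside the EB values.

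**Figure D1:**
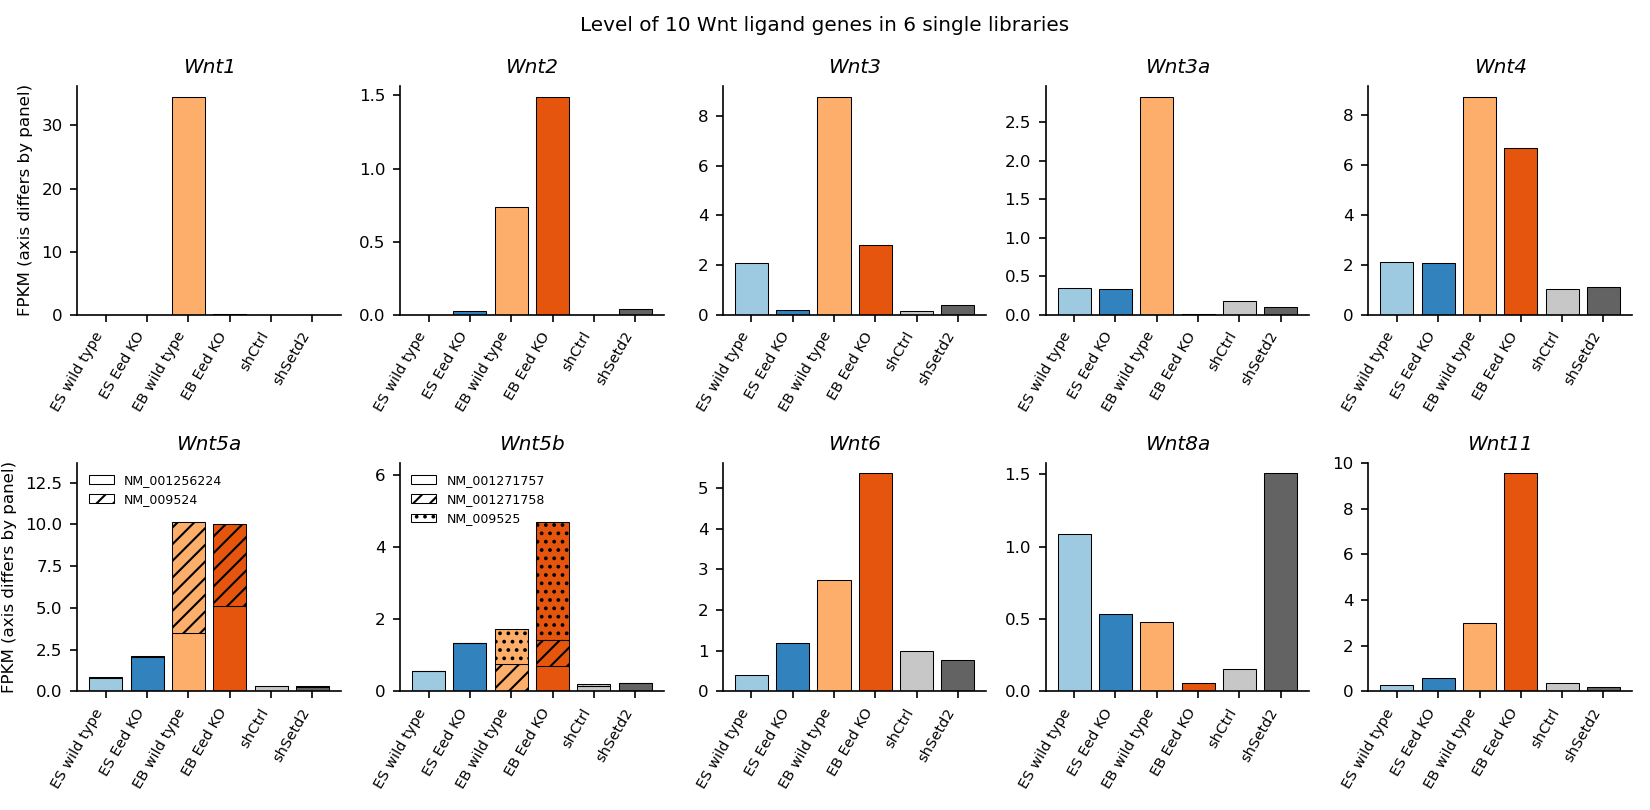
Level of each Wnt ligand in FPKM (vertical axis, scaled per panel from 0) in 6 single libraries (bars), with the transcripts of Wnt5a and Wnt5b stacked. Wnt1 stands at 34.5 FPKM in wild-type EBs and below 0.1 FPKM in the other 5 libraries, and Wnt11 is highest in the EB library labelled Eed KO at 9.54 FPKM.

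Wild-type EBs held more Wnt RNA than wild-type ES cells. Summed FPKM of the 10 ligands was 73.7 in wild-type EBs, and 8 ligands reached 1 FPKM. Wnt1 made up 46.9% of that sum, and without it the sum was 39.1 FPKM. In such bulk RNA, fewer cells of a type and less RNA per cell cannot be told apart. By the size rule 7 of the 10 ligands were higher in wild-type EBs than in wild-type ES cells and none was lower, where 19.3% of the 14772 expressed genes were called higher and 14.2% lower. In wild-type ES cells only Wnt3, Wnt4 and Wnt8a reached 1 FPKM, and the other ligands count as expressed through other libraries. A gene under 1 FPKM in ES cells cannot be called lower by this rule, so only Wnt3, Wnt4 and Wnt8a could have been. The median difference of the 10 ligands was 1.46, beside 0.02 over all expressed genes. Of all genes 2855 were higher and 2100 lower, a split that became 3584 and 1463 with libraries scaled to equal FPKM totals and 3427 and 1527 with the median of ratios, which moved the median of all genes to 0.26 and 0.22.

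In cells with the Eed KO label the count was again 7 higher and none lower, against 19.7% and 18.5% of expressed genes, and Wnt3, Wnt4, Wnt5a, Wnt6 and Wnt11 were called with either label. Here only Wnt4, Wnt5a and Wnt6 could have been called lower, as the transcripts of the other ligands lay under 1 FPKM in ES cells. Wnt1 and Wnt3a were called with the wild-type label, by 5.12 and 1.51, beside 0.06 and -0.39 with the Eed KO label. Wnt2 and Wnt5b were called with the Eed KO label, by 1.28 and 2.09, and lay just inside the size rule with the wild-type label, at 0.80 and 0.97. With a pseudocount of 0.1 both also passed it there, at 3.06 and 3.41, which makes 9 ligands higher. Wnt8a was then lower, and of 14772 expressed genes 3705 were higher and 2661 lower in that wild-type comparison. The median difference of the 10 ligands was 1.30, beside -0.03 over all genes. The split of all genes, 2913 higher and 2738 lower, became 3600 and 2088 with equal totals and 3880 and 1842 with the median of ratios, and the median of all genes 0.17 and 0.26. The ligands summed to 40.8 FPKM in the EB library labelled Eed KO, 40.7 without Wnt1, which is close to the 39.1 FPKM of the other 9 ligands in wild-type EBs.

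Between EBs labelled Eed KO and wild-type EBs, Wnt1, Wnt3a and Wnt3 were lower and Wnt11 and Wnt5b higher with the Eed KO label by the size rule, that is 3 of 10 lower and 2 of 10 higher, where 9.82% of expressed genes were lower and 7.68% higher. The median of the 10 ligands was 0.05 and that of all genes -0.14, so the ligands lay on both sides of no difference. In ES cells Wnt3 was lower and no ligand was higher, against 3.01% and 2.82% of expressed genes, and the median of the 10 was 0.02 beside -0.03 over all genes. A ligand under 1 FPKM in both libraries of a comparison could not be called. Of all genes 1135 were higher and 1450 lower in EBs, against 1511 and 1163 with the median of ratios and 1414 and 1003 less each chromosome's median. In ES cells 417 were higher and 445 lower, against 511 and 326 with equal totals. The Eed comparison in EBs shares its wild-type library with the differentiation of wild-type cells, so a high value in that 1 library enters both.

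**Figure D2:**
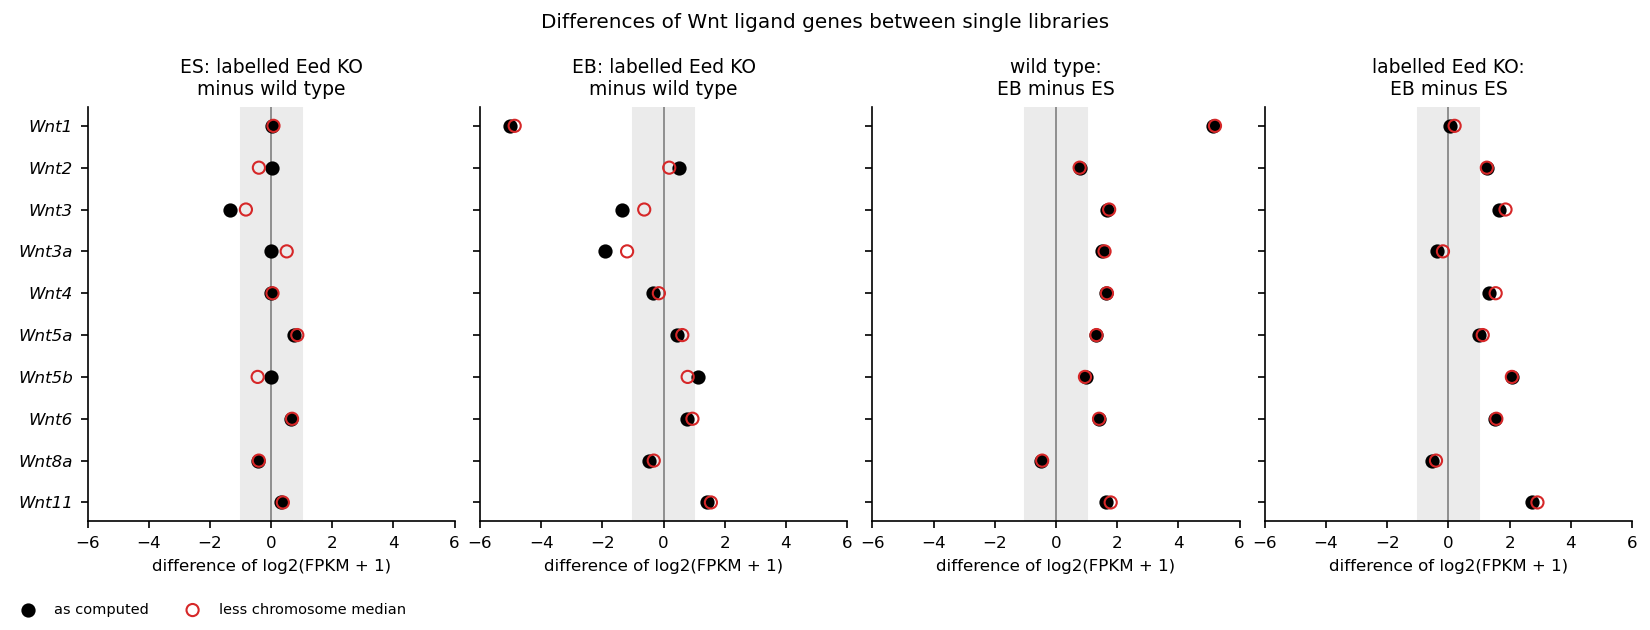
Difference of log2(FPKM + 1) (horizontal axis) for each Wnt ligand between 2 single libraries, as computed (filled) and less the median of its chromosome (open), with the range inside the size rule shaded. Wnt1 lies at -5.02 in EBs and 0.04 in ES cells for the Eed label, while Wnt3 and Wnt5b enter the shaded range once the chromosome median is removed.

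Wnt1, a beta-catenin ligand of the dorsal neural tube and of the border between midbrain and hindbrain, had the largest difference. It lies on chromosome 15 at 98620288 to 98624261 (mm9, RefSeq NM_021279). Its level was 0.0210 FPKM in wild-type ES cells, 0.0478 in the ES library labelled Eed KO, 34.5 in wild-type EBs, 0.0921 in the EB library labelled Eed KO, 0.0454 in shCtrl and listed at 0 in shSetd2. Only the wild-type EB library was high, and there Wnt1 stood at percentile 83.4 of the expressed genes. The difference for the Eed label was 0.04 in ES cells and -5.02 in EBs, and the difference between these was -5.06. Over 8 alternative settings the EB value ran from -7.49 to -4.87, past the size rule in each.

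Wnt3a, a beta-catenin ligand needed for the tail bud and the paraxial mesoderm, was likewise highest in wild-type EBs, at a lower level. It lies on chromosome 11 at 59061544 to 59104253 (NM_009522). It was 0.343 FPKM in wild-type ES cells, 0.331 in the ES library labelled Eed KO, 2.83 in wild-type EBs, 0.0165 in the EB library labelled Eed KO, 0.181 in shCtrl and 0.106 in shSetd2. Its level in the EBs labelled Eed KO was the lowest of the 6 libraries, under all 4 ES libraries. The EB difference for the Eed label was -1.91, and -1.19 less the chromosome 11 median. From ES cells to EBs it was higher by 1.51 with the wild-type label, while the difference was -0.39 with the Eed KO label.

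Wnt3, the beta-catenin ligand required to form the primitive streak, is on the same chromosome at 103635489 to 103679335 (NM_009521). It was 2.09 FPKM in wild-type ES cells, 0.214 in the ES library labelled Eed KO, 8.77 in wild-type EBs, 2.82 in the EB library labelled Eed KO, 0.151 in shCtrl and 0.379 in shSetd2. In ES cells the wild-type E36 library was the high one and the other 3 lay close together. The Eed difference was -1.35 in ES cells and -1.35 in EBs, and -0.82 and -0.63 less the chromosome 11 median, inside the size rule. With shCtrl in place of the wild-type E36 library the ES difference was 0.08. The 2 control ES lines alone differed by -1.42 at Wnt3 (shCtrl less wild-type E36), as much as the Eed comparison did. Wnt3 was higher in EBs than in ES cells by 1.66 with either label.

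Wnt8a, an early ligand of the gastrulating embryo that acts through beta-catenin, stayed low. It lies on chromosome 18 at 34701982 to 34707715 (NM_009290). It was 1.09 FPKM in wild-type ES cells, 0.535 in the ES library labelled Eed KO, 0.478 in wild-type EBs, 0.0587 in the EB library labelled Eed KO, 0.152 in shCtrl and 1.51 in shSetd2. It was the only ligand with a lower value in EBs than in ES cells under the wild-type label, by a difference of -0.50, within the size rule. With the Eed KO label Wnt3a, at -0.39, also had a lower value in EBs, beside -0.54 for Wnt8a.

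Wnt6, expressed in embryonic ectoderm and epithelia, and Wnt2, a ligand of the heart and lung primordia, had their highest values in the EBs labelled Eed KO. Wnt6 (chromosome 1, 74818466 to 74831893, NM_009526) was 0.408 FPKM in wild-type ES cells, 1.20 in the ES library labelled Eed KO, 2.74 in wild-type EBs, 5.36 in the EB library labelled Eed KO, 0.998 in shCtrl and 0.782 in shSetd2. Its Eed differences were 0.64 in ES cells and 0.77 in EBs, both within the size rule. Wnt2 (chromosome 6, 17938940 to 17980445, NM_023653) was listed at 0 in wild-type ES cells and shCtrl, and was 0.0284 FPKM in the ES library labelled Eed KO, 0.737 in wild-type EBs, 1.49 in the EB library labelled Eed KO and 0.0376 in shSetd2. Its EB difference was 0.52.

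Wnt11, which acts mainly without beta-catenin in cell movements and in heart and kidney formation, was the ligand with the largest positive difference for the Eed label in EBs. It lies on chromosome 7 at 105987355 to 106003257 (NM_009519). It was 0.270 FPKM in wild-type ES cells, 0.594 in the ES library labelled Eed KO, 2.98 in wild-type EBs, 9.54 in the EB library labelled Eed KO, 0.378 in shCtrl and 0.172 in shSetd2. The 2 EB libraries were the highest, and that with the Eed KO label exceeded the other. The Eed difference was 0.33 in ES cells and 1.41 in EBs, where it ran from 1.41 to 1.65 over 8 alternative settings. From ES cells to EBs Wnt11 was higher by 1.65 with the wild-type label and by 2.73 with the Eed KO label.

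Wnt5a, the best known ligand of Ror2, and its close relative Wnt5b have several deposited transcripts. Wnt5a (chromosome 14, 29318659 to 29338701) summed to 0.876 FPKM in wild-type ES cells, 2.10 in the ES library labelled Eed KO, 10.2 in wild-type EBs, 10.03 in the EB library labelled Eed KO, 0.304 in shCtrl and 0.346 in shSetd2. The gene total differed between the EB libraries by -0.02 on the log2(FPKM + 1) scale, while transcript NM_001256224 was 3.50 and 5.10 FPKM and NM_009524 was 6.66 and 4.93. In ES cells NM_009524 was at most 0.0926 FPKM in the 4 libraries, so it passed 1 FPKM only in the 2 EB libraries. How the authors' software divided reads between the 2 transcripts cannot be checked from these values.

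Wnt5b (chromosome 6, 119382549 to 119494365) summed to 0.568 FPKM in wild-type ES cells, 1.34 in the ES library labelled Eed KO, 1.71 in wild-type EBs, 4.69 in the EB library labelled Eed KO, 0.210 in shCtrl and 0.225 in shSetd2. Transcript NM_009525, which stands for the gene here, was listed at 0 in both E36 ES libraries, and was 0.960 FPKM in wild-type EBs and 3.27 in the EB library labelled Eed KO. Its EB difference was 1.12, or 1.07 with transcripts summed, and 0.79 less the chromosome 6 median, inside the size rule. In ES cells the transcript's difference was 0, and with transcripts summed it was 0.58.

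Wnt4, a ligand of kidney and gonad development, had similar levels with either Eed label. It lies on chromosome 4 at 136833550 to 136855416 (NM_009523). It was 2.11 FPKM in wild-type ES cells, 2.08 in the ES library labelled Eed KO, 8.73 in wild-type EBs, 6.70 in the EB library labelled Eed KO, 1.03 in shCtrl and 1.11 in shSetd2. The Eed differences were -0.01 in ES cells and -0.34 in EBs. Wnt4 was higher in EBs by 1.65 with the wild-type label and by 1.32 with the Eed KO label.

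Grouped by the branch they are best known for, the ligands had other shares in the 2 EB libraries. Wnt1, Wnt2, Wnt3, Wnt3a, Wnt6 and Wnt8a, which act mainly through beta-catenin, summed to 50.1 FPKM in wild-type EBs and 9.84 in the EB library labelled Eed KO, or 15.6 and 9.75 without Wnt1. Wnt4, Wnt5a, Wnt5b and Wnt11, which act mainly without it, summed to 23.6 and 31.0 FPKM. The beta-catenin group held 68.0% of the ligand RNA in wild-type EBs and 24.1% in EBs labelled Eed KO. In ES cells its share was 50.8% with the wild-type label and 27.8% with the Eed KO label, at sums of 3.94 and 2.35 FPKM. Wnt3, a member of this group, was 2.09 and 0.214 FPKM in these libraries, and its ES difference was 0.08 with shCtrl as the control. In the E14 libraries it was 44.3% in shCtrl and 60.2% in shSetd2. Assignment to a branch is by common usage, and several of these ligands can use either.

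The difference between the Eed comparisons in EBs and in ES cells exceeded the size rule for 4 of the 10 ligands. Wnt1 (-5.06) and Wnt3a (-1.90) were lower and Wnt5b (1.12) and Wnt11 (1.08) higher, where 10.1% of expressed genes were lower and 9.13% higher. The median was -0.02 for the ligands and -0.11 for all genes. Wnt3 had a value of -0.01, since it was lower by the same amount in both. With transcripts summed Wnt5b was at 0.49, and with a pseudocount of 0.1 Wnt11 was at 0.74 and Wnt3 at 1.20.

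Beside 4 of the ligands lies another Wnt gene, with no gene between them. Wnt10b, 11.7 kb from Wnt1, was 0.211 FPKM in wild-type ES cells, 0.214 in the ES library labelled Eed KO, 2.65 in wild-type EBs and 0.901 in the EB library labelled Eed KO. Like Wnt1 it was highest in wild-type EBs, with an Eed difference of -0.94 in EBs, within the size rule, and it was higher in wild-type EBs than ES cells by 1.59. Wnt9a, 16.2 kb from Wnt3a, was 1.98, 0.609, 8.002 and 4.43 FPKM in the same order of libraries. Unlike Wnt3a, Wnt9a was higher in EBs than in ES cells with the Eed KO label too, by 1.76, beside -0.39 for Wnt3a. Wnt9b, 24.4 kb from Wnt3, and Wnt10a, 6.7 kb from Wnt6, stayed below 0.45 FPKM in all 6 libraries. Of the 9 Wnt genes outside the set, 6 were expressed, and Wnt2b and Wnt16 were higher in EBs labelled Eed KO, by 2.31 (1.28 to 10.3 FPKM) and 1.51 (0.471 to 3.18 FPKM), while none was lower. Over all expressed genes 7.68% were higher and 9.82% lower in that comparison.

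**Figure D3:**
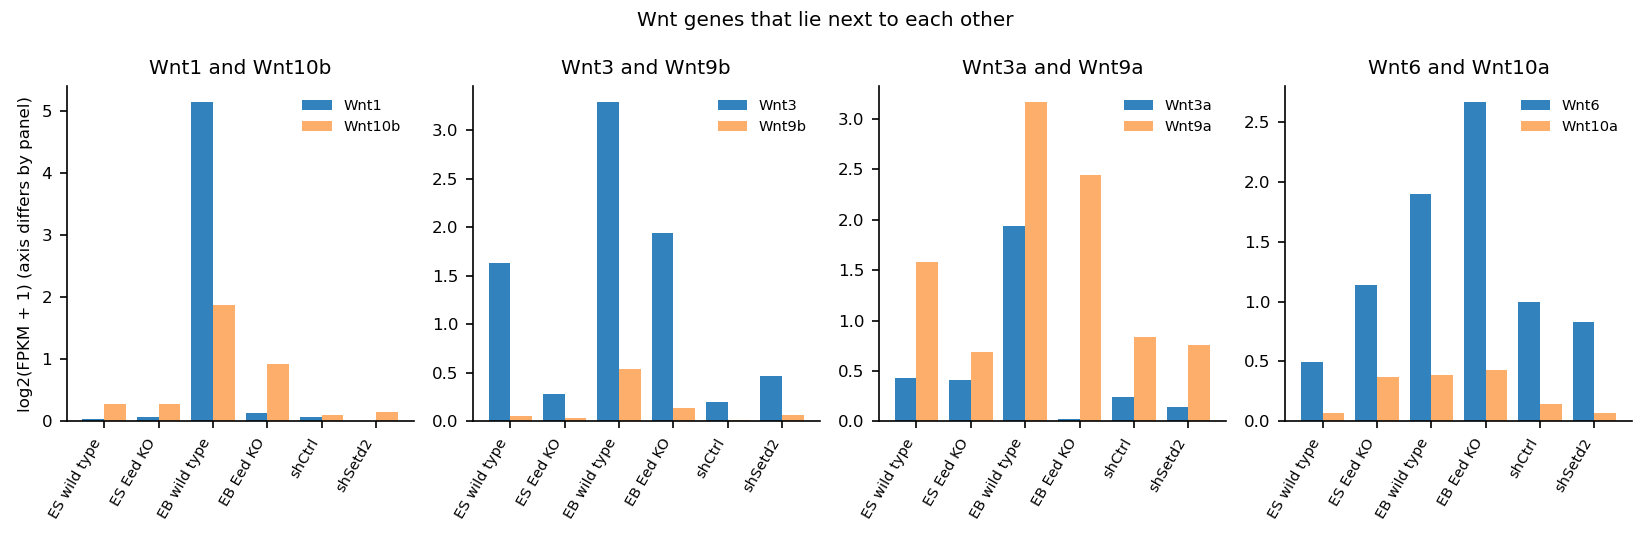
Level as log2(FPKM + 1) (vertical axis, scaled per panel from 0) of 4 ligands and the Wnt gene next to each, in 6 single libraries (bars). Wnt10b follows Wnt1 in being highest in wild-type EBs, and Wnt9a is at 4.43 FPKM in the EB library labelled Eed KO where Wnt3a is at 0.0165 FPKM.

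Among the genes for proteins that secrete and receive Wnts, a minority passed the size rule for the Eed label. Over all expressed genes 9.82% were lower and 7.68% higher in EBs, and 3.01% and 2.82% in ES cells. These shares stand beside every list count below, and no count was tested against them. Wls, which carries Wnts to the cell surface, was 61.8 FPKM in wild-type EBs and 74.7 in those labelled Eed KO. Porcn, the enzyme that attaches the lipid, was 4.69 and 4.42 FPKM, but 10.6 in wild-type ES cells and 25.8 in the ES library labelled Eed KO, a difference of 1.21. Of 10 Frizzled receptors, 2 were lower and 2 higher in EBs: Fzd10 went from 46.1 to 2.72 FPKM (-3.66) and Fzd3 from 20.0 to 6.02 (-1.58), while Fzd4 went from 2.52 to 6.96 (1.18) and Fzd7 from 23.9 to 53.0 (1.12). In ES cells Fzd2, on chromosome 11, was lower by a difference of -1.64 and Fzd7 by -1.02, but with shCtrl as the control these were -0.35 and -0.89, inside the size rule. Of 6 co-receptors only Lrp6, on chromosome 6, was higher in EBs (14.9 to 36.7 FPKM), by 1.24, or 0.91 less the chromosome median. Only Ptk7 was lower in ES cells (44.3 to 15.8 FPKM), by -1.43, or -0.65 with shCtrl as the control, while Porcn passed the rule against shCtrl too. With that control Fzd6 (1.51) and Lrp6 (1.04) were also higher, beside 0.47 and 0.75 against wild-type E36 cells.

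Genes listed as secreted antagonists, many of which bind Wnts or their co-receptors, were higher in EBs labelled Eed KO for 4 of 11 expressed of 14 listed, and none was lower. Frzb went from 2.82 to 17.7 FPKM, Dkk3 from 6.24 to 31.5, Dkk2 from 7.63 to 19.6 and Sfrp2 from 31.5 to 71.7. Dkk2 and Sfrp2 lie on chromosome 3, and less its median their differences of 1.25 and 1.16 were 0.86 and 0.77, which leaves 2 antagonists past the size rule. The median over the expressed antagonists was 0.57, beside -0.14 over all genes. In ES cells Sfrp1 was higher, 6.19 against 23.2 FPKM, and Notum was lower, 20.5 against 7.87, but neither passed the rule with shCtrl as the control (0.17 and -0.39). Of 7 expressed genes of the R-spondin and Lgr axis, which tunes receptor turnover, Rnf43 (1.65) and Rspo4 (1.06) were higher and Lgr5 (-1.18) lower in EBs. Less the chromosome median Lgr4 was also higher there, at 1.17 in place of 0.97. In ES cells Lgr4 was higher by 1.02 with shCtrl as the control, beside 0.24 against wild-type E36 cells.

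Downstream, none of 10 Dishevelled and destruction complex genes passed the size rule for the Eed label in ES cells or EBs. Of 4 Tcf and Lef factors Tcf7l1, on chromosome 6, was higher in EBs (9.04 to 23.7 FPKM), by 1.30, or 0.97 less the chromosome median. In ES cells Lef1 was higher by 2.21 with shCtrl as the control, beside 0.67 against wild-type E36 cells. Of 11 expressed canonical target genes 5 were lower in EBs labelled Eed KO and none was higher: Axin2 (25.7 to 5.84 FPKM), Apcdd1 (31.9 to 11.1), Sp5 (1.76 to 0.183), Ccnd1 (68.5 to 32.1) and Msx1 (20.9 to 9.87). Their median difference was -0.48, and it was 0.01 in ES cells, where Sp5 was lower by -1.40 and Cdx1 higher by 1.06, values that were 0.16 and 0.47 with shCtrl as the control. Less each chromosome's median, Ccnd1 (-0.93) and Msx1 (-0.80) came inside the size rule in EBs, which leaves 3 target genes lower. Ccnd1 lies on chromosome 7 and Msx1 on chromosome 5, whose EB medians relative to all genes were only 0.04 and -0.03. Axin2 lies on chromosome 11, Msx1 is also a marker of dorsal neural tube, and Ccnd1 is a general cell cycle gene with many inputs. Of 10 planar cell polarity genes Celsr3 (-2.81), Vangl2 (-1.64), Celsr2 (-1.55) and Celsr1 (-1.28) were lower and Prickle1 (1.70) and Vangl1 (1.52) higher in EBs, and none passed the rule in ES cells. The targets and polarity genes are expressed in neural tissue as well, and whether their values follow the ligands was not tested.

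**Figure D4:**
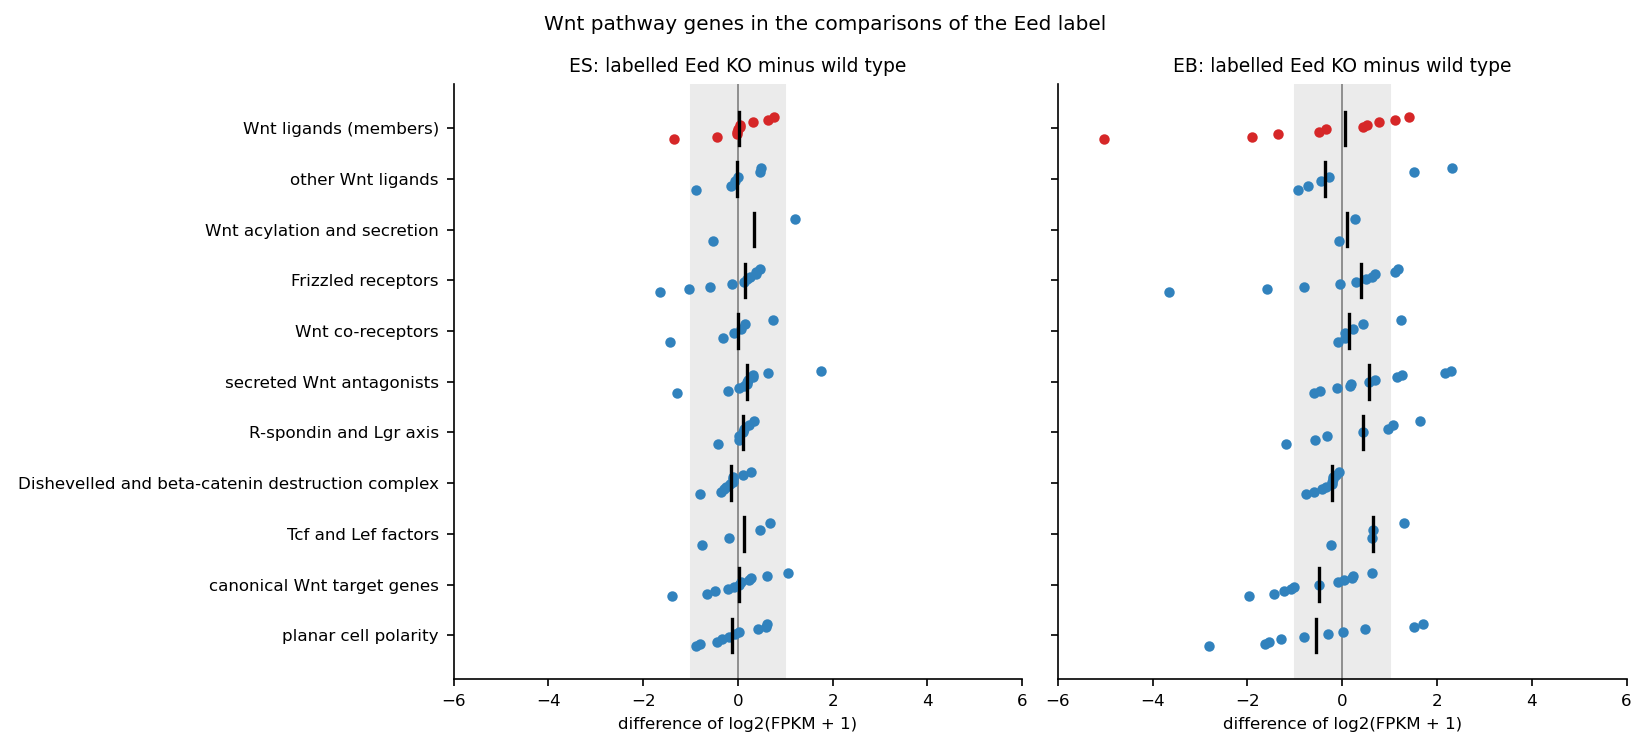
Difference of log2(FPKM + 1) for the Eed label (horizontal axis) in ES cells and EBs, for all 10 Wnt ligands and for the expressed genes of 10 Wnt pathway lists (points), with list medians as bars and the range inside the size rule shaded. In EBs the secreted antagonists have a median of 0.57 and the canonical target genes one of -0.48.

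Markers of several cell types also differed between the EB libraries, where 9.82% of all expressed genes were lower and 7.68% higher. Markers of dorsal neural tube, where Wnt1 and Wnt3a are expressed in the embryo, summed to 135 FPKM in wild-type EBs and 34.9 in the EB library labelled Eed KO, and 2.75 to 5.82 in the 4 ES libraries. Of 7 expressed dorsal markers 6 were lower, among them Atoh1 (15.3 to 0.0962 FPKM) and Olig3 (13.0 to 0.101), and none was higher. All 8 markers of postmitotic neurons were lower, with summed levels of 556 and 11.5 FPKM. As a list they did not share the low ES level of Wnt1, with sums of 162 to 225 FPKM in the 4 ES libraries. Stmn2 (69.3 to 134 FPKM) exceeded there its 53.5 FPKM in wild-type EBs. By the transcript that stands for the gene, Map2 (at most 5.7e-05 FPKM), Dcx (at most 0.000238) and Elavl4 (at most 0.441) were low in the ES libraries, as Wnt1 was. The same transcripts of Map2 and Elavl4 were listed at 0 in the EBs labelled Eed KO. The sums given here are over all transcripts of the listed genes, so other transcripts can hold RNA that these single values leave out. Of 5 expressed markers of the border of midbrain and hindbrain, the other place of Wnt1, Pax5 (1.62 to 0.0399 FPKM) and Pax8 (2.51 to 0.254) were lower, En2 (0.923 to 4.13) higher, and En1 was 4.05 and 7.88. The part of neural tissue in the Wnt1 and Wnt3a values was not tested.

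Other marker lists went in either direction. Of 8 fibroblast and mesenchyme markers 4 were higher in EBs labelled Eed KO (Col1a1, Col1a2, Pdgfra and Fbln2) and none was lower. Their summed levels were 844 and 1857 FPKM for all 8 in wild-type and Eed KO labelled EBs, 14.1 to 31.5 in the E36 ES libraries and 10.3 and 10.4 in the E14 libraries. Of 8 epithelial markers 7 were higher (142 to 403 FPKM summed), and of 4 expressed extraembryonic endoderm markers 3, Gata4, Gata6 and Foxa2, were higher (44.9 to 116 over the whole list). None of 4 expressed primitive streak markers, the place of Wnt3 and Wnt8a, passed the size rule in EBs. Of 6 expressed blood and endothelium markers 1, Cdh5, was lower, by -1.17, or -0.92 less the chromosome median, inside the size rule. Cdh5 lies on chromosome 8, whose EB median relative to all genes was only -0.07. Tal1, at 0.98, passed the size rule less the chromosome median, at 1.16. Pluripotency markers summed to 239 FPKM in wild-type EBs and 26.1 in those labelled Eed KO, 7 of 8 lower. The part of cell composition in the Wnt11, Wnt5b and Wnt8a values was not tested.

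**Figure D5:**
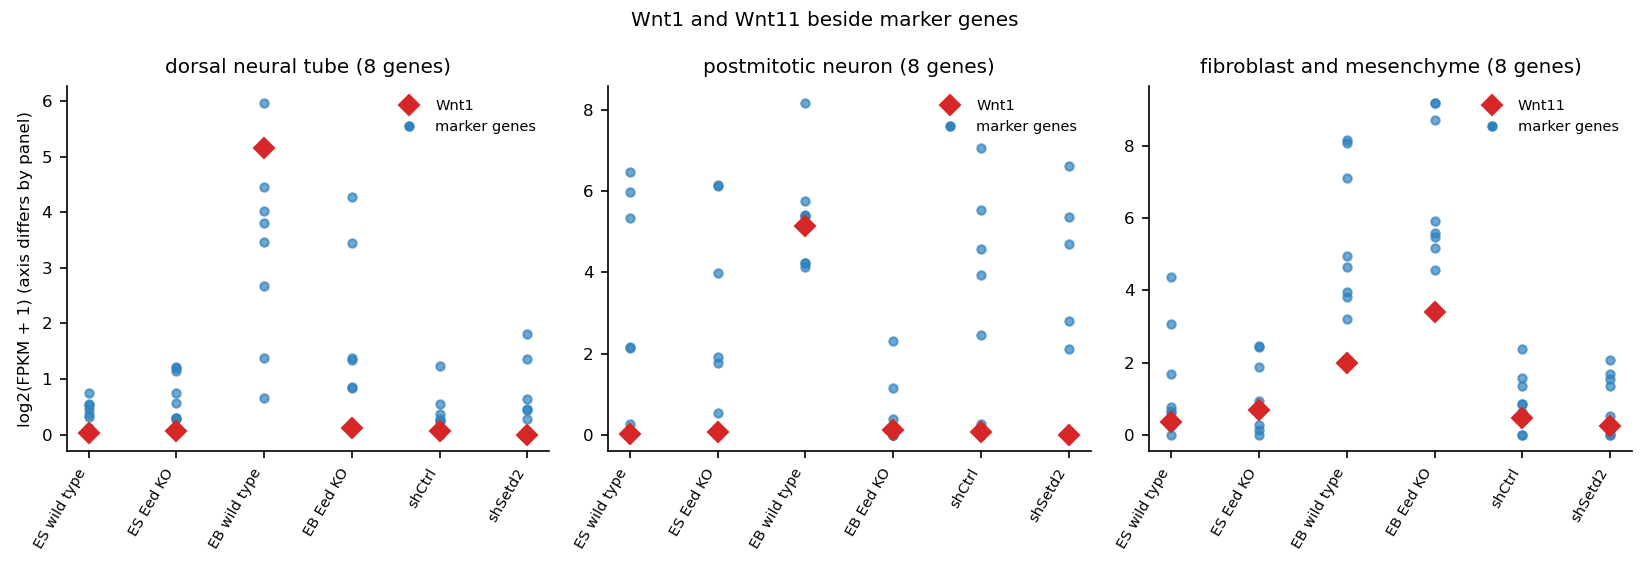
Level as log2(FPKM + 1) (vertical axis, scaled per panel) of Wnt1 or Wnt11 (diamonds) and of marker genes (circles, 1 transcript per gene) in 6 single libraries. Wnt1 is high only in wild-type EBs, where all 8 neuron markers are above 1 FPKM, while 5 of the 8 also reach 1 FPKM in each ES library. Wnt11 is highest in the EBs labelled Eed KO, where the fibroblast and mesenchyme markers sum to 1857 FPKM over all transcripts.

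The genes most like a ligand were found by the root mean square difference of log2(FPKM + 1) over the 6 libraries, each gene centred on its own mean, among 11214 genes that reach 5 FPKM. For Wnt1 they were Mirlet7b (0.040), Mir30c-2 (0.042) and Mir344-2 (0.092), small RNA genes listed at 0 in the 5 other libraries. With small RNA genes left out, a choice made after their values were seen, they were Map2 (0.127), a neuronal microtubule protein, Scrt2 (0.143), a neural zinc finger factor, and Cntn2 (0.160), an axonal adhesion protein. For Wnt6 the most alike was Dkk1 (0.057), a secreted Wnt antagonist, with 0.392, 1.16, 2.999, 5.46, 1.11 and 0.941 FPKM in wild-type ES cells, ES Eed KO, wild-type EBs, EB Eed KO, shCtrl and shSetd2. For Wnt11 they were Cd200 (0.072), Tgfbr3 (0.072) and Hdac11 (0.076), for Wnt4 Adamts7 (0.082), Heg1 (0.083) and Slc35g2 (0.106), for Wnt5a Ctsb (0.120), Tceal5 (0.126) and Rnf11 (0.131), and for Wnt3 Zfp608 (0.172), Thsd7a (0.210) and Pea15a (0.215). The search used the transcript that stands for each gene, also for Map2. For Wnt5a it is NM_001256224, at 3.50 FPKM in wild-type EBs and 5.10 in those labelled Eed KO. The Wnt5a total over transcripts was 10.2 and 10.03 FPKM there, so the genes named are most like that transcript and not the gene total. Such likeness over 6 libraries, 4 of them ES cells, is a description only.

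After Setd2 knockdown Wnt8a was the only ligand past the size rule. It was higher in shSetd2 by 1.12, at 1.51 FPKM beside 0.152 in shCtrl, where 0.706% of the 12317 genes expressed in these libraries were higher and 1.70% lower. Only Wnt4 and Wnt8a reached 1 FPKM in either library, so the other 8 ligands were too weak to be called. The wild-type E36 library, at 1.09 FPKM, lay between the 2 E14 libraries at Wnt8a, and shCtrl was lower than it by a difference of -0.86. Over all genes the split of 87 higher and 210 lower became 114 and 162 with equal totals, 123 and 164 with the median of ratios, 138 and 156 with equal upper quartiles and 118 and 160 less each chromosome's median.

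The 2 control ES libraries, of different lines and culture histories, give the only scale for a difference between ES libraries without an Eed or Setd2 target. Wnt3 was lower in shCtrl than in wild-type E36 cells, 1 ligand of 10, where 5.65% of 12747 expressed genes were lower and 3.14% higher, and no ligand was higher. Only Wnt3, Wnt4 and Wnt8a reached 1 FPKM in either library, so the other 7 were too weak to be called. The median over these 3 was -0.86, and that over all expressed genes -0.10. The split of 400 higher and 720 lower genes became 502 and 501 less each chromosome's median. Wnt3 is thus the only ligand called between these controls, and also the only ligand called for the Eed label in ES cells.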

How the data were processed

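The authors deposited FPKM values for 29851 RefSeq transcripts in 6 RNA libraries. Reads were aligned with TopHat and quantified with Cuffdiff on mm9, per the submitters' processing notes, while versions, options and scaling were not given in the sources used here. The libraries, per the labels' protocols, came from Trizol RNA and a TruSeq v2 kit that leaves strand unmarked, so antisense reads cannot be told apart. Symbols came from RefSeq (GRCm38.p6, names and promoters only) for 29296 transcripts and not for 555. The transcript with the highest mean stands for its gene. With 1 library per group no test was run. Expressed means at least 1 FPKM in any of the 4 E36 libraries, or in either of the 2 compared where E14 cells enter. The differences use a pseudocount of 1, and the size rule is 1. The rule for named genes took all ligands, targeted genes, Wnt neighbours within 100 kb, up to 4 genes per list with the largest Eed differences, and the 3 genes most like each ligand above 5 FPKM. A count of 5 or fewer genes called under the main settings is named in full. Members, 11 pathway and 9 marker lists and the branch groups were chosen with earlier results of these data known. Alternatives varied the pseudocount, filter, scaling, transcript choice, chromosome centring and ES control, and the last 2 were applied to the pathway and marker lists after seeing the data. Python 3.11.15, pandas 2.3.3, numpy 2.4.6 and matplotlib 3.10.9 were used, and the code was tested on simulated data.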

Additional observations from a re-analysis of the deposited data

Results flagged for a closer look

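The Wnt1 difference for the Eed label was 0.04 in ES cells and -5.02 in EBs, so the 2 stages differed by -5.06. It was picked out because the values have opposite signs and the EB value exceeds the size rule. The ES levels behind the first value were 0.0210 and 0.0478 FPKM, so its sign rests on values near 0 and shows no reversal. With 1 library per condition this difference was not tested.

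The Wnt3a difference between EBs and ES cells was 1.51 with the wild-type label and -0.39 with the Eed KO label, which differ by -1.90. The signs are opposite and the first value exceeds the size rule, and the difference was not tested. With the Eed KO label the levels were 0.331 FPKM in ES cells and 0.0165 in EBs, both under 1 FPKM.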

How the results depend on the processing

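Of 421 ligand differences recomputed under an alternative, 402 kept their side of the size rule and 19 did not, and 20 changed sign, of which 1 had been past the rule: with shCtrl as the ES control the Eed difference of Wnt3 was 0.0763, which left 1 ligand higher (Wnt5a) and 0 lower. With a pseudocount of 0.1 the Eed label gave 937 higher and 887 lower genes in ES cells and 2 higher ligands (Wnt5a and Wnt6), Setd2 knockdown 204 and 366 genes, and shCtrl against wild-type E36 cells 654 and 1223 genes and 2 lower ligands (Wnt3 and Wnt8a). The same pseudocount gave 9 higher (Wnt2 and Wnt5b added) and 1 lower ligand (Wnt8a) in wild-type differentiation, 2 lower with the Eed KO label (Wnt3a and Wnt8a), and 4 lower for the Eed label in EBs (Wnt8a added, at -1.87). Beside these, 3705 genes were higher and 2661 lower in wild-type differentiation, 3729 and 3389 with the Eed KO label, and 1645 and 2121 for the Eed label in EBs. With a minimum of 5 FPKM 1 ligand was higher for the Eed label in EBs, 1 higher and 1 lower between the Eed comparisons, and 0 in Setd2 knockdown and between the control lines, because fewer ligands were counted. With transcripts summed 1 ligand was higher between the Eed comparisons. With equal upper quartiles Setd2 knockdown gave 138 higher genes. Less the chromosome median, 0 ligands were lower for the Eed label in ES cells and between the control lines, and 1 was higher in EBs. The cause of these changes was otherwise not tested. The 3 rescalings changed 1 ligand call, Wnt5b in wild-type differentiation, which was 1.03 with equal totals. With the median of ratios the median of all genes was 0.00 in place of -0.14 for the Eed label in EBs and 0.01 in place of -0.13 for Setd2 knockdown. No paired analysis was possible because each group has 1 library, and none could be left out. Depth is unknown, and values under 1 FPKM may rest on few reads.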
